A study of Mus musculus with 4 samples.

Results

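The genes of the 3 pocket proteins (Rb1, Rbl1 and Rbl2), of 4 subunits of the MuvB complex (Lin9, Lin37, Lin52 and Lin54) and of the transcription factors that join MuvB later in the cell cycle (Mybl2 and Foxm1) were compared between mouse embryonic stem cells (ESCs) grown in serum and in 2i. The genes were chosen by symbol, and all 9 were found among the 14533 genes of the deposited table and among the 13005 genes tested. Serum ESCs had been kept for over 20 days in medium with serum, and 2i ESCs for as long in serum-free medium with inhibitors of MEK and GSK3. Per the methods of the study, both media held LIF, the cytokine that sustains ESC self-renewal. Each condition had 2 libraries of total RNA from cells sorted by cell cycle phase. The sample labels give late G1-phase and no cell line, while the series text speaks of early G1-phase, and the sample labels are followed here.

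Pocket proteins bind E2F transcription factors and hold genes for DNA synthesis silent in G1-phase until cyclin-dependent kinases (CDKs) phosphorylate them. P107 (encoded by Rbl1) and P130 (encoded by Rbl2), but not RB, also join E2F4 or E2F5, a DP protein and the MuvB core to form the DREAM complex, a repressor of cell cycle genes in quiescence and G1-phase. Once P107 or P130 is released, the same MuvB core takes up B-MYB (encoded by Mybl2) and then FOXM1, and activates genes needed in G2-phase and mitosis. ESCs are known for rapid cycling and for high levels of B-MYB. The study followed the pocket proteins as proteins and by their phosphorylation, and in knockout ESCs without RB or without RB, P107 and P130. From RNA-seq of G1-phase ESCs it also reported higher transcript levels of E2F genes and known E2F targets in serum. Here the transcripts of the whole set were measured, which says nothing of phosphorylation or of complexes formed.

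The libraries held 18939401 to 26570098 reads, of which protein-coding genes took 46.9% to 76.3%. All 9 ESC markers examined (among them Pou5f1, Sox2 and Nanog) were present, with summed normalized counts of 58311 to 81677 in serum and 71669 to 92876 in 2i. Of 26 markers of primitive endoderm, fibroblasts, trophoblast and early lineages, 13 were in the table, none at 0 in every library. Of 7 markers of primitive endoderm, 4 were in the table and 2 were among the genes tested. The 4 summed to 72.0 and 109 in serum, against 332 and 256 in 2i. Gata4, Gata6 and Sox17 were higher in both 2i libraries than in either serum library, at low counts (Sox17 at most 33.2). Pdgfra overlapped, with 47.0 and 41.8 in serum, against 60.2 and 27.2 in 2i. Over all 13 the sums lay between 786 and 1136 in serum and between 1006 and 3507 in 2i. The highest sum, in 2i replicate 1, held 2215 normalized counts of the trophoblast gene Elf5. The part of these cells in the results below was not tested. Because the RNA came from many cells at once, fewer cells that express a gene and less RNA per cell cannot be told apart.

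A normalized count is a gene's read count divided by the size factor of its library, and values are given in the order replicate 1, replicate 2. Fold changes are serum over 2i on the scale of log2(normalized count + 1), with the standard error (SE) from limma, and p-values were adjusted over all 13005 genes. Calls required an adjusted p-value below 0.05 together with a change of at least 2-fold. For 2 libraries per condition, the smallest two-sided p-value that exact permutation allows is 0.33, so single values were not permuted. The labels do not say whether the replicates came from separate cultures, although the study calls them biological, and the p-values measure the spread between these libraries only.

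None of the 9 genes was called in either direction by limma, edgeR or DESeq2. Over all tested genes limma called 0% as higher in serum ESCs and 0.0154% as higher in 2i ESCs. With DESeq2 on whole reads these shares were 0.561% and 1.37%. Without adjustment (p-value below 0.05 with a 2-fold change), each of the 3 tools picked 1 member, Foxm1, higher in serum. The backgrounds toward serum were 2.97% with limma, 2.21% with edgeR and 4.56% with DESeq2. Toward 2i the background in limma was 3%. The median log2 fold change of the members was 0.47, beside 0.00470 over all tested genes, and 8 of the 9 had a positive value. In 6 of the 9 the fold change was smaller than its SE. Both serum libraries lay above both 2i libraries for Lin9, Mybl2 and Foxm1, which is 33.3% of the members against 20.5% of all tested genes. Both lay below for Rbl1, which is 11.1% against 19.4%. With 9 genes, these shares are no result about the set.

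**Figure D1:**
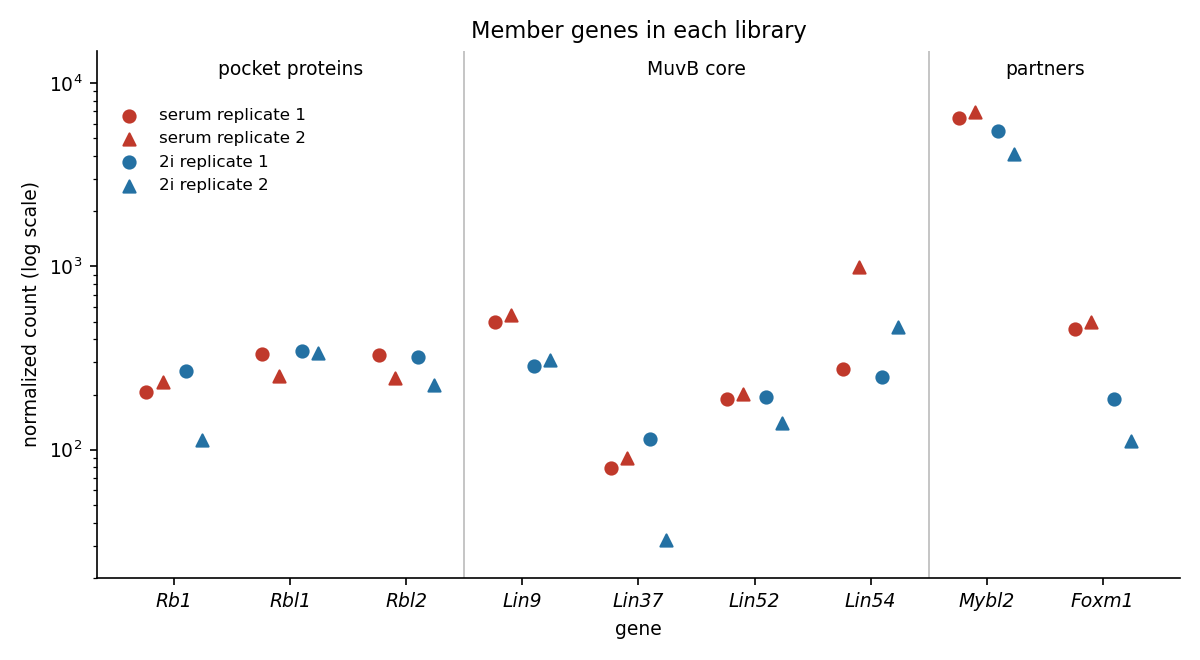
Normalized counts (log scale) of the 9 genes in each library, with serum in red, 2i in blue, circles for replicate 1 and triangles for replicate 2. Foxm1, Lin9 and Mybl2 are higher in both serum libraries than in either 2i library, Mybl2 stands above all other members at 4091 to 6959, and Rb1, Lin37 and Lin54 spread widely within a condition.

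Promoter letters of members and targets were read from RefSeq windows (build GRCm38.p6, 250 bases before to 50 after the start), which held 6 of the 9 members and not Rb1, Lin9 and Foxm1. The E2F element was searched as TTTCCCGC, TTTGGCGC, TTTCGCGC, TTTGCCGC or GGCGGGA and the CHR element as TTTGAA or TTCGAA, on both strands. The E2F forms can overlap each other. Of 32851 windows, of tested and untested genes alike, 12.8% held an E2F form and 19.2% a CHR form. Rbl1 and Mybl2, both known as E2F targets, had an E2F form within 18 bases before the start, and so had Lin37 (16 bases before). The forms of Rbl1 and Mybl2 are shown here in capitals on the gene's strand, at chr2:157204534-157204563 (minus strand) and chr2:163054611-163054640 (plus strand).
Rbl1: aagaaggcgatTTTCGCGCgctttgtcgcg
Mybl2: ccgacgcacttGGCGGGAgataggaaagtg
The log2 fold changes of Rbl1 and Mybl2 had opposite signs (-0.23 with SE 0.46 and 0.50 with SE 0.47). Among the MuvB core genes, Lin52 held E2F forms and no CHR form, and Lin37 and Lin54 held both. Rbl2 held a CHR form alone, 201 bases before the start. These are matches of letters, not sites of binding.

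Among the pocket protein genes, no difference between conditions exceeded the spread between replicates. Rb1 (ENSMUSG00000022105, chromosome 14, 73583480 to 73725629, minus strand, mm9), the gene of the founding retinoblastoma tumor suppressor, had 205 and 235 normalized counts in serum, against 268 and 113 in 2i. Its 2i libraries lay on either side of both serum libraries. Its log2 change was 0.33 (SE 0.60, 95% interval -1.13 to 1.79; limma, adjusted p-value 0.910), so that the interval reaches from a fold change of 0.458 to one of 3.45. The sign rested on 2i replicate 2, without which the value was -0.28, and on GC content and length, with which corrected it was -0.18. The 2i replicates differed by 1.23 on the log2 scale, while the counting error of that difference was 0.16.

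Rbl1 (ENSMUSG00000027641, chromosome 2, 156971629 to 157030270, minus strand) was the only member with a negative fold change. It had 332 and 254 normalized counts in serum, against 345 and 337 in 2i. Both serum values lay below both 2i values, but serum replicate 1 only just, by 0.02 on the log2 scale. Its log2 change was -0.23 (SE 0.46, 95% interval -1.34 to 0.88; limma, adjusted p-value 0.917), and it stayed between -0.42 and -0.04 when a library was left out. With GC content and length corrected, it was -0.72.

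Rbl2 (ENSMUSG00000031666, chromosome 8, 93593956 to 93647743, plus strand), whose product P130 is the pocket protein of resting cells, reached 328 and 245 normalized counts in serum, against 322 and 226 in 2i. In both conditions replicate 1 was the higher library, and the ranges of the groups overlapped. This gave a log2 change of 0.07 (SE 0.49, 95% interval -1.12 to 1.26; limma, adjusted p-value 0.979). It turned to -0.14 without serum replicate 1, to -0.18 without 2i replicate 2, to -0.049 with upper quartile scaling and to -0.23 with GC content and length corrected. For all 3 pocket protein genes the intervals include 2-fold changes in either direction except a 2-fold rise of Rbl1, so a difference of that size was not detectable here and is not shown to be absent.

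The 4 genes of the MuvB core differed in how well their libraries agreed. Lin9 (ENSMUSG00000058729, chromosome 1, 182571498 to 182620816, plus strand), which encodes the subunit that helps B-MYB join the complex, had the smallest SE of the members. It reached 495 and 542 normalized counts in serum, against 284 and 310 in 2i. All 4 comparisons of 1 serum with 1 2i library put it higher in serum, by 0.67 to 0.93 on the log2 scale, and replicates differed by 0.13 in each condition. The log2 change was 0.80 (SE 0.44, 95% interval -0.25 to 1.86; limma, adjusted p-value 0.753), and it stayed between 0.74 and 0.87 without any 1 library. Correcting for GC content and transcript length brought it to 0.38.

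Lin54 (ENSMUSG00000035310, chromosome 5, 100870937 to 100929658, minus strand) encodes the subunit that reads the CHR promoter element. It had 277 and 996 normalized counts in serum, against 250 and 468 in 2i. Replicate 2 was the higher library in both conditions, and serum replicate 1 lay below 2i replicate 2. The log2 fold change of 0.62 (SE 0.72; limma, adjusted p-value 0.846) became -0.30 without serum replicate 2 and 1.54 without serum replicate 1. With GC content and length corrected, it was 0.13. The serum replicates differed by 1.84 on the log2 scale, with a counting error of 0.10.

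Lin37 and Lin52, whose products are the small subunits needed for repression and for docking of P107, P130 or B-MYB, showed no steady change. Lin37 (ENSMUSG00000036845, chromosome 7, 31340460 to 31344857, minus strand) had the fewest reads of the members, with 79.0 and 90.4 normalized counts in serum, against 114 and 32 in 2i. Its lowest value, in 2i replicate 2, rests on 33 reads. The log2 change was 0.47 (SE 0.89, limma adjusted p-value 0.913), and -0.43 without 2i replicate 2 or 1.37 without 2i replicate 1. Lin52 (ENSMUSG00000085793, chromosome 12, 85792458 to 85872483, plus strand) reached 189 and 201 normalized counts in serum, against 193 and 140 in 2i. One 2i library lay between the serum libraries and the other below them, and the log2 change was 0.25 (SE 0.52, limma adjusted p-value 0.923). It was 0.01 without 2i replicate 2, 0.48 without 2i replicate 1 and 0.02 with GC content and length corrected.

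Of the activating partners, Foxm1 showed the largest fold change among the members. Foxm1 (ENSMUSG00000001517, chromosome 6, 128312985 to 128325911, plus strand) encodes a forkhead factor that drives mitotic genes, and had 456 and 499 normalized counts in serum, against 190 and 112 in 2i. Both serum libraries were higher than both 2i libraries, and the mean was 477 ± 30 (SD, n = 2) in serum against 151 ± 55.5 (SD, n = 2) in 2i, a ratio of 3.17. The log2 fold change was 1.70 (SE 0.51, 95% interval 0.48 to 2.93), with an unadjusted p-value of 0.0141 that did not pass adjustment over all genes (limma, adjusted p-value 0.753). It ranked 206 by p-value among the 13005 genes. On whole reads the adjusted p-value was 0.692 with edgeR and 0.114 with DESeq2. The pairings of libraries gave 1.26 to 2.15, and without 1 library the value lay between 1.32 and 2.09.

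Mybl2 (ENSMUSG00000017861, chromosome 2, 162880423 to 162910424, plus strand) reached 6446 and 6959 normalized counts in serum, against 5476 and 4091 in 2i. All 4 pairings put it higher in serum, by 0.24 to 0.77 on the log2 scale, while the 2i replicates differed by 0.42. The log2 fold change was 0.50 (SE 0.47, 95% interval -0.64 to 1.64; limma, adjusted p-value 0.801). Counting error was 0.02 in each library, so the depth did not limit this value and the spread between libraries did.

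**Figure D2:**
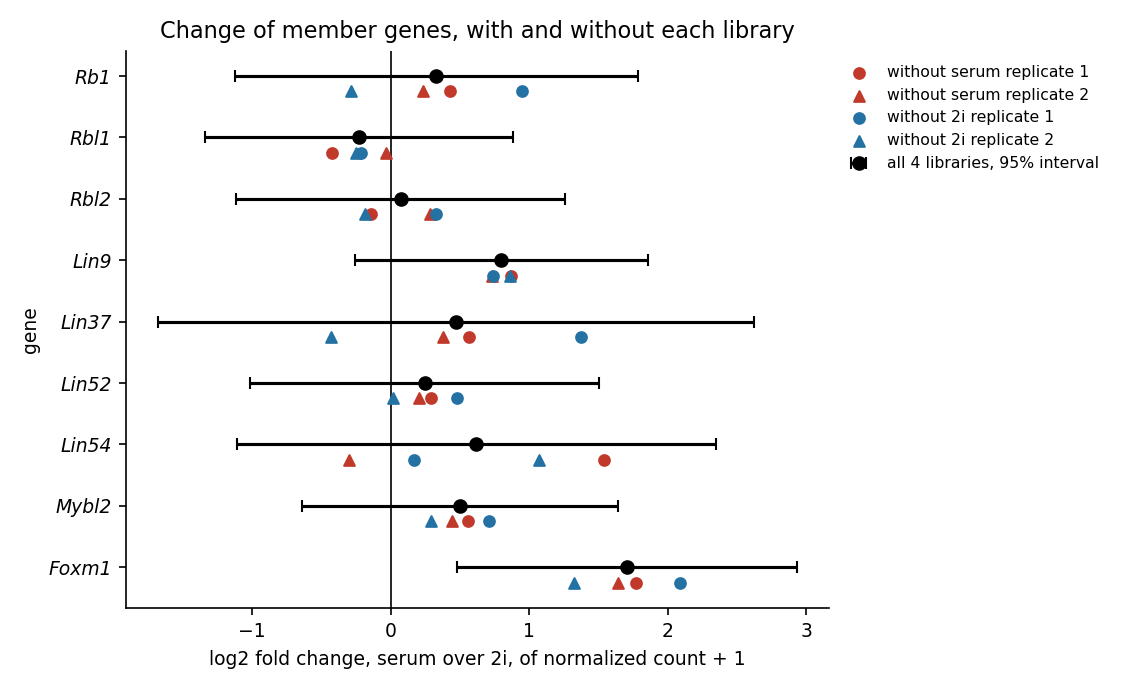
Log2 fold change of each member, serum over 2i, with its 95% interval from limma (black), and the value after leaving out each library (colored). Only the interval of Foxm1 (0.48 to 2.93) lies above 0, and the values of Rb1, Rbl2, Lin37 and Lin54 fall on both sides of 0 depending on the library left out.

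Levels of different genes were compared as normalized counts per kilobase of the longest annotated transcript. Mybl2 ranked first in all 4 libraries, with 1766 and 1906 per kilobase in serum, against 1500 and 1120 in 2i, above the sum of the other 8 members in each library (462 to 830). Lin9 came second in 3 libraries, with 168 and 184 per kilobase in serum, against 96.7 and 106 in 2i, and Lin54 (217) passed it in serum replicate 2. Foxm1 stood at 104 and 113 per kilobase in serum, ranks 3 and 4 of the 9, and at 43.2 and 25.4 in 2i, where it had rank 9 in replicate 1 and rank 7 in replicate 2. The remaining genes lay between 24.4 and 102 per kilobase, and their order changed from library to library, so that neighbors below Lin9 were not told apart. The pocket protein genes summed to 179 and 152 per kilobase in serum, against 194 and 139 in 2i, overlapping ranges. The order below Mybl2 and the sums depend on the transcript length assumed, since several members have short annotated transcripts.

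Ratios between members within a library do not depend on how libraries were scaled, and their differences between libraries do not depend on the transcript length. Foxm1 was 0.0587 and 0.0595 of the level of Mybl2 in serum, against 0.0288 and 0.0226 in 2i. On the log2 scale this ratio was 1.21 higher in serum, while replicates differed by 0.02 in serum and 0.35 in 2i. Foxm1 was thus higher relative to Mybl2 in both serum libraries than in either 2i library. Mybl2 exceeded Rbl2, the gene of the repressive partner P130, 26.5-fold and 38.3-fold per kilobase in serum and 23.0-fold and 24.4-fold in 2i. That ratio was 0.43 higher in serum on the log2 scale, less than the difference of 0.53 between the serum replicates. The ratio of Rbl1 to Rbl2 was 0.30 lower in serum on the log2 scale, less than the difference of 0.48 between the 2i replicates. Which pocket protein gene had the highest level depends on the transcript length: Rbl1 was 1.03 and 1.05 times Rbl2 in serum per kilobase of the longest transcript, but 0.326 and 0.334 times per kilobase of the median transcript. The share of Rb1 in the pocket protein sum moved likewise, from 24.6% and 33.1% in serum to 48.6% and 59.1%. Of the ratios compared, only that of Rbl1 to Rb1 overlapped between the conditions. With 2 libraries per condition these ratios were not tested.

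**Figure D3:**
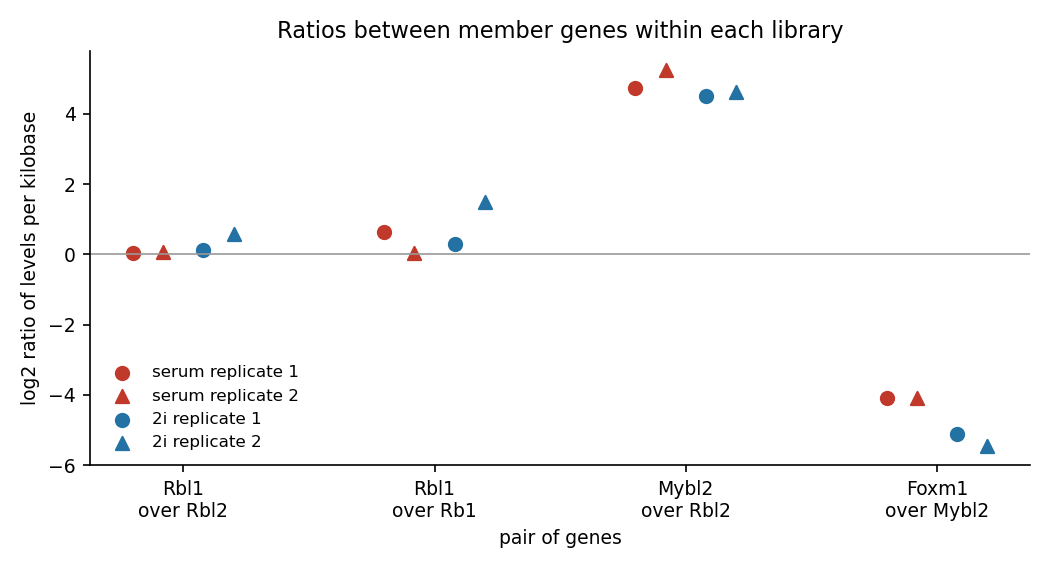
Log2 ratios of levels per kilobase of the longest transcript between 4 pairs of members, 1 point per library (serum red, 2i blue, circles replicate 1, triangles replicate 2). Foxm1 over Mybl2 separates the conditions (-4.09 and -4.07 in serum, -5.12 and -5.47 in 2i). Mybl2 over Rbl2 and Rbl1 over Rbl2 do not overlap either, but differ by less than the replicates of 1 condition. Rbl1 over Rb1 overlaps.

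Other genes of the pathway were read from the same fit by role. All 7 genes of further DREAM and MuvB partners had a positive log2 fold change, with a median of 0.55, and none was called by limma, edgeR or DESeq2. Unadjusted (p-value below 0.05 and 2-fold), limma picked 1 of the 7, E2f4, higher in serum ESCs (background 2.97%). With edgeR 0 passed (background 2.21%), and with DESeq2 E2f4 and Tfdp1 did (background 4.56%). For 4 of the 7, both serum libraries lay above both 2i libraries (background 20.5%). E2f4, the main E2F of DREAM, had 1131 and 1393 normalized counts in serum, against 714 and 450 in 2i (log2 change 1.14 with SE 0.46, limma adjusted p-value 0.753). Tfdp1, its DP partner, had 2730 and 3795 in serum, against 1308 and 1891 in 2i. Both genes were higher in each serum library than in either 2i library. Rbbp4, the histone-binding subunit of MuvB, had 6464 and 8825 normalized counts in serum, against 5489 and 6623 in 2i, which overlapped. Dyrk1a, whose kinase assembles DREAM by phosphorylating LIN52, had 927 and 1065 in serum, against 1049 and 900.2 in 2i (log2 change 0.03 with SE 0.42). Once GC content and length were corrected, the median of these partners was 0.01, so the shared sign depends on that step.

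The 8 genes of cyclins and CDKs that phosphorylate pocket proteins in G1-phase had a median of 0.79 on the log2 scale, with 7 positive values. None was called by limma or edgeR, and DESeq2 called Ccnd2 (background 0.561%). In limma 2 passed the unadjusted thresholds toward serum, Ccnd2 and Ccne1 (background 2.97%). The same genes passed with DESeq2 (background 4.56%), but only Ccnd2 with edgeR (background 2.21%). Ccnd2 had 351 and 713 normalized counts in serum, against 113 and 39.8 in 2i (log2 change 2.88, SE 0.71). Ccne1 had 2654 and 4612 in serum, against 877 and 1710 in 2i (log2 change 1.51, SE 0.55). Cyclin D1 (Ccnd1) had 2346 and 2153 normalized counts in serum, against 1064 and 1623 in 2i, and Cdk6 had 419 and 390 in serum, against 255 and 210.5 in 2i. In both, the serum libraries lay above the 2i libraries (log2 fold changes 0.77, SE 0.45, and 0.80, SE 0.46). Cdk4 and Ccnd3 overlapped between the conditions (log2 fold changes 0.23, SE 0.51, and -0.0072, SE 0.53). At the protein level the study reported the opposite direction for cyclin D, cyclin E and CDK6, which were slightly lower in serum ESCs. It reported CDK4 protein as slightly higher in serum ESCs. The transcripts given here are thus no measure of the amounts of these proteins, and the cause of the difference was not tested.

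The 6 genes of phosphatase subunits that act on pocket proteins had a median of -0.12 that turned to 0.14 without serum replicate 1 and to 0.12 without 2i replicate 2. There were 3 positive values, and limma, edgeR and DESeq2 called none of the 6, with or without adjustment. Ppp1ca, a catalytic subunit of PP1, had 4820 and 4149 normalized counts in serum, against 4778 and 8180 in 2i. Ppp1cb, another, had 3474 and 7964 in serum, against 2787 and 3089 in 2i. Both serum libraries lay above both 2i libraries for Ppp1cb, though its serum replicates differed by more than its log2 fold change, and Ppp1ca overlapped (log2 fold changes 0.84, SE 0.55, and -0.48, SE 0.51). Among 8 genes of chromatin proteins that bind pocket proteins, the median was 0.39 and none was called by limma, edgeR or DESeq2, while 1 passed the unadjusted thresholds in each (backgrounds 2.97% with limma, 2.21% with edgeR and 4.56% with DESeq2). That gene was Arid4a, which encodes an RB-binding protein of the SIN3 corepressor, with 742 and 1183 normalized counts in serum, against 412 and 254 in 2i (log2 change 1.53 with SE 0.50, limma adjusted p-value 0.753).

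Genes that MuvB controls were listed by the phase of their peak, with earlier results of these data known. Of 30 G2/M targets of MuvB, B-MYB and FOXM1, 28 had a positive log2 fold change, with a median of 1.51, beside 0.00470 over all tested genes. None was called by limma or edgeR, and 10 (33.3%) were called by DESeq2, all higher in serum ESCs, beside 0.561% of all tested genes. Unadjusted (p-value below 0.05 and 2-fold), 19 (63.3%) were higher in serum ESCs with limma, against 2.97% of all tested genes. These counts were 17 with edgeR, against a background of 2.21%, and 18 with DESeq2, against 4.56%. In 26 (86.7%) both serum libraries exceeded both 2i libraries, against 20.5% of all tested genes. Hmmr, which encodes a spindle protein, had 3312 and 6253 normalized counts in serum, against 1056 and 631 in 2i (log2 change 2.48 with SE 0.53, limma adjusted p-value 0.753). Tpx2, an activator of Aurora A, had 2607 and 3557 in serum, against 813 and 543 in 2i, and Kif23, a kinesin of cytokinesis, had 1336 and 1689 in serum, against 479 and 188 in 2i. Plk1, the mitotic Polo-like kinase, had 692 and 905 in serum, against 281 and 119 in 2i.

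Not every G2/M target followed. Cdk1, the mitotic kinase itself, had 1173 and 1464 normalized counts in serum, against 869 and 2004 in 2i (log2 change -0.01 with SE 0.54), so that its 2i libraries lay on either side of the serum libraries. Aurkb, the kinase of the chromosomal passenger complex, had 389 and 325 in serum, against 354 and 290.0 in 2i (0.15, SE 0.46). Cdc25b, a phosphatase that activates CDK1, was lowest of the list, with 157 and 189 in serum, against 244 and 161 in 2i (-0.20, SE 0.53). Foxm1 and these targets are transcribed mainly after G1-phase. Whether the sorted populations of the conditions held different shares of cells from later phases was not tested.

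The 25 G1/S targets of E2F and DREAM had a smaller median, 0.40, with 23 positive values. None was called by limma or edgeR, and DESeq2 called Rrm2 (background 0.561%). In limma, 2 of the 25 passed the unadjusted thresholds toward serum (background 2.97%). For 12 (48%) both serum libraries exceeded both 2i libraries, against 20.5% of all tested genes. Rrm2, a subunit of ribonucleotide reductase, had 5959 and 8917 normalized counts in serum, against 2691 and 1567 in 2i (log2 change 1.83 with SE 0.52, limma adjusted p-value 0.753). Cdc6, a licensing factor of replication origins, had 2548 and 2597 in serum, against 644 and 1275 in 2i. The E2f1 gene had 531 and 457 in serum, against 658 and 229 in 2i, and overlapped. Leaving out 2i replicate 1 brought the median of the list to 0.14 and leaving out 2i replicate 2 to 0.89, whereas that of the G2/M targets lay between 1.29 and 1.75 when a library was left out. The difference between the lists was not tested.

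**Figure D4:**
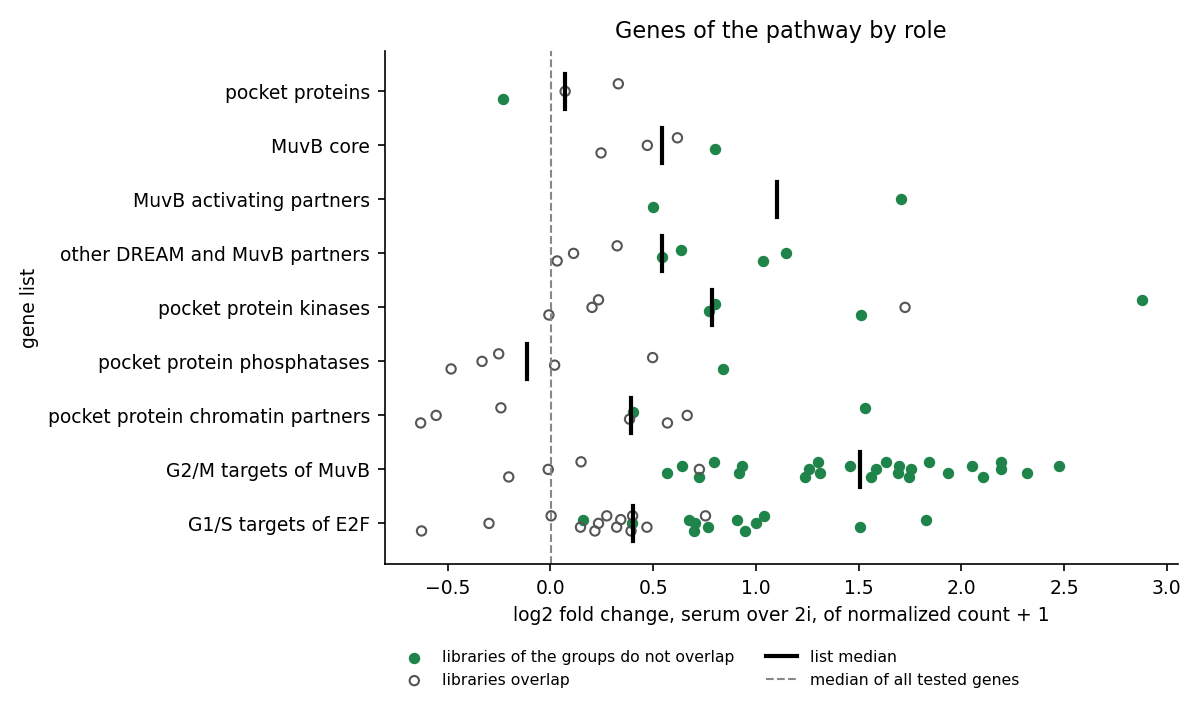
Log2 fold change, serum over 2i, of each gene of 9 lists (1 point per gene, filled where the libraries of the conditions do not overlap), with the list median as a bar and the median of all tested genes as a dashed line. The G2/M targets lie furthest to the right (median 1.51), the G1/S targets nearer to 0 (0.40) and the pocket protein genes around it (0.07).

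In the same RefSeq windows (GRCm38.p6), the CHR form, which LIN54 reads, is shown in capitals for 3 G2/M targets with a large change and for Cdk1, at chr7:122159453-122159482 (plus strand), chr4:118437344-118437373, chr9:61946780-61946809 and chr10:69352910-69352939 (minus strand).
Plk1: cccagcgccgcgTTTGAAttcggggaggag
Cdc20: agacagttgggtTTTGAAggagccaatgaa
Kif23: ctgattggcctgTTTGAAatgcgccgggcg
Cdk1: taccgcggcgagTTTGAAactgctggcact
Windows were held for 25 of the 30 G2/M targets, and 19 of these (76.0%) had a CHR form, against 21.7% of all genes with a window. For the G1/S targets 13 of 21 (61.9%) had an E2F form, against 14.3% of all genes with a window. These backgrounds include genes that were not tested here. An E2F form was more frequent, and a CHR form less frequent, among tested genes with a window than in these backgrounds. Among tested genes with a window, the median log2 fold change was 0.073 for 2380 with an E2F form and -0.0022 for 6129 without. Within the G2/M targets the median log2 fold change was 1.46 for the 19 with a CHR form and 1.51 for the 6 without. Split by the E2F form, it was 0.79 for 7 with and 1.57 for 18 without. In the G1/S targets it was 0.39 for 13 with an E2F form and 0.57 for 8 without. Plk1, Cdc20 and Kif23 (log2 fold changes 2.10, 1.69 and 2.32) share the form with Cdk1 (-0.01). Over all tested genes with a window the median was 0.10 for 1368 genes with a CHR form and 0.0065 for 7141 without. No test was made of these shares and medians.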

How the data were processed

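Per the methods of the study, RNA from sorted ESCs was depleted of ribosomal RNA, reverse-transcribed from random primers and sequenced as single 43-base reads. The authors aligned the reads to mm9 with Bowtie, quantified them with MMSeq and scaled gene counts per library with DESeq2. The deposited signal is thus a read count per gene over the size factor of its library. Every value was a whole multiple of 1 step per library (100% within 0.01; steps 1.00 and 0.972 in serum and 1.04 and 0.970 in 2i), which gave back whole reads. Names, positions and transcripts came from GENCODE vM1 on the same build and covered 14462 of 14533 genes.

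The 13005 genes whose mean in serum or in 2i reached 50 normalized counts entered a limma fit (limma 3.58.1 under R 4.3.3) of log2(normalized count + 1), with a variance trend, Benjamini-Hochberg adjustment and no replicate term. Intervals are 95% intervals from that fit, and counting error is that of whole reads alone. No set test was run. On simulated data with the spread between libraries that edgeR estimated (coefficient of variation 0.668), the fit called 0 of 200 genes changed 4-fold. At a 16-fold change it called 24 of 200 (12%). With an assumed coefficient of variation of 0.1 it called all 200 at either size. Each simulation gave the same spread to every gene, whereas the SE of the members ran from 0.44 to 0.89. The shares called are therefore not the power for any 1 member. A gene without a call is thus not shown to be unchanged. Members and lists were chosen with earlier results of these data known. The rule allowed the members, any listed gene and the 3 genes of nearest pattern to be named.

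Of the 43-base words of the members' transcripts, 87.6% (Rb1) to 100% (Lin9) occurred in no other annotated gene. Exons of Rb1 overlap Rcbtb2 and Lpar6, those of Rbl2 overlap Aktip and those of Lin37 overlap Hspb6, each on the other strand. Use of strand in the counting is not given in the sources used here, so reads of these stretches cannot be told apart. Foxm1 overlaps 4933413G19Rik, a gene absent from the deposited values, on the same strand, so there strand could not separate the reads. Of the words of Foxm1, 98.2% occurred in no other annotated gene. Alternatives were pseudocounts of 0.5 and 5, filters, scalings, GC content and length correction (mgcv 1.9.3), a replicate block, limma without trend, the omission of each library, and the count tests of edgeR 4.0.16 and DESeq2 1.42.0 on the whole reads.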

Additional observations from a re-analysis of the deposited data

How the results depend on the processing

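No member was called under any of the 18 alternatives, which is no sign of stability where 2 libraries are set against 2. Lin9, Lin52, Mybl2, Foxm1 and Rbl1 kept their sign in each. Rb1 reversed to -0.18 with GC content and length corrected (the same with a replicate block) and -0.28 without 2i replicate 2, and Rbl2 to -0.23 after that correction, -0.049 with upper quartile scaling (median of all genes then -0.12), -0.14 without serum replicate 1 and -0.18 without 2i replicate 2. Lin37 reversed to -0.43 without 2i replicate 2 and Lin54 to -0.30 without serum replicate 2. Without 1 library the values ranged from -0.28 to 0.95 for Rb1, -0.18 to 0.33 for Rbl2, -0.43 to 1.37 for Lin37 and -0.30 to 1.54 for Lin54. The cause was not tested. Genes called over the whole table numbered 0 higher in serum and 2 in 2i as reported, 73 and 178 with DESeq2, 44 and 159 with the replicate block, and 2 and 7 with the block and the GC content and length correction. Those higher in 2i were 1 with that correction alone or without trend, 0 with edgeR, 4 at a mean of at least 200 and 0 without any 1 library, where the lone library of a condition is assumed to vary like the others. Of the listed genes other than members, 0 were called as reported, 12 with DESeq2 and 6 with the block, all higher in serum. List medians without 1 library ranged from 0.14 to 0.89 for the G1/S targets, 0.26 to 0.83 for the other DREAM partners and 0.11 to 0.55 for the chromatin partners, and the last 2 moved to 0.011 and 0.044 with GC content and length corrected, block or not. At a mean of at least 200, Lin37 and Lin52 were not tested.

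Per kilobase of the median instead of the longest transcript, mean levels were 502 for Rb1, 124 for Rbl1, 341 for Rbl2, 183 for Lin9, 99.8 for Lin37, 7279 for Mybl2 and 292 for Foxm1, and only the place of Mybl2 was kept. The labels number the replicates alike in both conditions, and the replicate differences correlated across genes with r = 0.480. With 2 pairs this does not show that the numbers pair the libraries, and with the replicate block Foxm1 had an adjusted p-value of 0.218 (limma). Depth limits Lin37 most, at 33 to 110 reads a library.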

Other observations

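The tested genes whose pattern over the 4 libraries was nearest to that of Foxm1 were Prpf3, Ccna2 and Gm17390, at root mean square distances of 0.033, 0.060 and 0.075 between log2 values centred on their mean. Ccna2, the cyclin of S-phase and G2-phase, reached 3666 and 4262 normalized counts in serum, against 1467 and 948 in 2i. The nearest gene to Mybl2 was Atl3 (0.024), that to Rb1 was Dapk1 (0.016), that to Rbl1 was Hgs (0.011) and that to Rbl2 was Atf6b (0.0093). Among the members themselves, Mybl2 and Lin52 were closest (0.13), and Lin37 and Lin54 furthest apart (1.12). With 4 libraries many genes lie near any pattern, and the distances are given as a description.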
